A study of Homo sapiens with 6 samples.

Results

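The genes of glycolysis, glucose uptake and the hypoxia response were examined in human immortalized ventricular cardiomyocytes after knockdown of CIRBP, the cold-inducible RNA-binding protein. A list of 44 genes was used, and a gene was kept when it had at least 10 estimated counts in at least 3 of the 6 libraries, which left 41 of the 58884 genes of the table, called members here. The 3 genes that were dropped, EGLN3, CA9 and ARRDC4, had at most 2 counts in any library, where 3 counts correspond to 0.0984 to 0.117 CPM (counts scaled to a common library size by edgeR's TMM method). Among the genes kept, the smallest counts were the 54 of TXNIP and the 62 of ANKRD37. The list was drawn up with the fall of SLC2A3 in these libraries already known, so that the values of SLC2A3 are described here without a test, and the number of listed genes that changed is a description too. Counts of members include SLC2A3 unless stated otherwise, and its own calls in them are no evidence of its fall.

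Total RNA of 6 libraries was sequenced, 3 from cells given negative control siRNA (NC) and 3 from cells given siRNA against CIRBP (SiCIRBP). The labels name the cell line T0519, whereas the study names AC16 cells for its RNA-seq, both being immortalized human cardiomyocytes. The cells of all 6 libraries were grown in Prigrow I medium with fetal bovine serum and antibiotics, and no drug is named for any of them. The study tested only NC_2, NC_3, SiCIRBP_1 and SiCIRBP_3 and left out NC_1 and SiCIRBP_2 for discrepancies, so these 4 libraries are given first and all 6 beside them. The sources do not say whether the libraries of a group came from separate cultures, so p-values measure only the spread between these libraries, which may be technical.

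The libraries held between 25726259 and 29919566 estimated counts. CIRBP itself stood at 86.4, 85.8 and 91 CPM in NC_1, NC_2 and NC_3 and at 54.8, 24.3 and 46.3 CPM in SiCIRBP_1, SiCIRBP_2 and SiCIRBP_3, a fall of 1.75-fold over the 4 libraries (edgeR adjusted p = 0.00828). Of 18 cardiomyocyte markers, 4 reached 1 TPM (a level scaled for transcript length and library depth) in any library. These were GATA4 at 22.6 to 63 TPM, ACTN2 at 7.86 to 15.9, NKX2-5 at 3.39 to 9.69 and TNNI3 at 0.11 to 2.45. A further 7 were at 0 in every library (MYH6, MYL2, MYL3, TTN, RYR2, PLN and MYBPC3). The summed level of the 18 was 72.9 to 89.7 TPM in NC and 41.6 to 61.4 TPM in SiCIRBP, most of it from GATA4. The 12 fibroblast or mesenchymal markers, 10 of which reached 1 TPM, summed to 4341 to 4620 TPM and 4171 to 5988 TPM. VIM alone had 2724 to 3663 TPM. SiCIRBP_2 stood apart in 28 interferon-stimulated genes, whose median log2 difference from NC_2 and NC_3 was 3.71, against -1.18 in SiCIRBP_1 and 0.85 in SiCIRBP_3. The part of these differences in the results below was not tested, and in bulk RNA fewer cells of a kind and less RNA per cell cannot be told apart.

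Glucose enters such cells through facilitative transporters, is trapped by hexokinase and is broken down to pyruvate, which either enters the mitochondria or is reduced to lactate and exported. Hypoxia-inducible factors are transcription factors whose alpha subunits are marked for destruction when oxygen is present. When they persist, they raise many of these transporters and enzymes together with genes for blood vessel growth, collagen hydroxylation and mitophagy. Hearts meet most of their energy need from fatty acids but turn to glucose when oxygen is short. The factors bind DNA at sites whose core reads ACGTG or GCGTG. The letters ACGTG, the only form counted here, also lie within the E-box CACGTG bound by Myc-related and glucose-sensing factors.

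Promoters of 7 members are shown with each ACGTG on either strand in capitals (CACGT on the strand printed, or CACGTG where both overlap). They were chosen after the letters had been counted, to show windows with and without a match: HK2, PDK1, P4HA1, ANKRD37 and SLC2A1 are genes that fell in the 4 libraries, PGAM1 rose and LDHA was not called. The windows come from RefSeq on GRCh38.p14 and run from 250 bases before to 50 bases after an annotated start, 5′ to 3′ on the strand of the gene. They lie at chr4:185396591-185396890 on the plus strand (ANKRD37), chr2:74834920-74835219 on the plus strand (HK2, its second annotated start), chr2:172555840-172556139 on the plus strand (PDK1, also its second start), chr10:73096817-73097116 on the minus strand (P4HA1), chr1:42958819-42959118 on the minus strand (SLC2A1), chr10:97427568-97427867 on the plus strand (PGAM1) and chr11:18394313-18394612 on the plus strand (LDHA, its first start).
ANKRD37: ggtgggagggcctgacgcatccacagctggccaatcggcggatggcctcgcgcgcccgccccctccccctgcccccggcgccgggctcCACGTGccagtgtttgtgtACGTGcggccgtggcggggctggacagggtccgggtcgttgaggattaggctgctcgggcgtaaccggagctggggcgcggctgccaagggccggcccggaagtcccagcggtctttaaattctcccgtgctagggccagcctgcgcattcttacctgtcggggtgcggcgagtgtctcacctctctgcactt
HK2: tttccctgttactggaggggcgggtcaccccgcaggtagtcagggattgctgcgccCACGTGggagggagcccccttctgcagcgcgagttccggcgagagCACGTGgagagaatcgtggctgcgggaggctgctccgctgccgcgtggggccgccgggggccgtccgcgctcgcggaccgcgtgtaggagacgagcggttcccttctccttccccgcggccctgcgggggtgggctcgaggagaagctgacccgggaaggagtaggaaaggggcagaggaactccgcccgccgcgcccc
PDK1: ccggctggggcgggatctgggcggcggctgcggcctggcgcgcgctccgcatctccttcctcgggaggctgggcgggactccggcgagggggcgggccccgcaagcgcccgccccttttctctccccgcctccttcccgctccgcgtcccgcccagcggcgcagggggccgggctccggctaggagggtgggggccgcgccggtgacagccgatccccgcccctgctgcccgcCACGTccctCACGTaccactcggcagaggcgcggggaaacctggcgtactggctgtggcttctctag
P4HA1: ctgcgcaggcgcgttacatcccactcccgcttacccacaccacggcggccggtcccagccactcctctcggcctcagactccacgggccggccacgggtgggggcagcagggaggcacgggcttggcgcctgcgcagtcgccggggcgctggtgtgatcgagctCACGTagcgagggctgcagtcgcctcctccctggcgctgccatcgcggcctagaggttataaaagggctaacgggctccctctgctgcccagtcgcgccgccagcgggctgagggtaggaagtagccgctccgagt
SLC2A1: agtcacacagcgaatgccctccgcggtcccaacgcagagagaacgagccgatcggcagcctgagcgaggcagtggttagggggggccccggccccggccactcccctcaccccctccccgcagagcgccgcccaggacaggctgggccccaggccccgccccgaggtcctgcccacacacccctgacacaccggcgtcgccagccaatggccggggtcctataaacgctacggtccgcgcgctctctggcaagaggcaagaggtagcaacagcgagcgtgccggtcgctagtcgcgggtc
PGAM1: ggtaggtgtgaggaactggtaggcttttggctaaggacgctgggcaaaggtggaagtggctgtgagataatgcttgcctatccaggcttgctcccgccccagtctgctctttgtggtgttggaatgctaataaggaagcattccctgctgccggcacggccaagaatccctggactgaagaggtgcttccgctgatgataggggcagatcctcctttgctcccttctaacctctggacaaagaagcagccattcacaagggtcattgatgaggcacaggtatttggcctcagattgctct
LDHA: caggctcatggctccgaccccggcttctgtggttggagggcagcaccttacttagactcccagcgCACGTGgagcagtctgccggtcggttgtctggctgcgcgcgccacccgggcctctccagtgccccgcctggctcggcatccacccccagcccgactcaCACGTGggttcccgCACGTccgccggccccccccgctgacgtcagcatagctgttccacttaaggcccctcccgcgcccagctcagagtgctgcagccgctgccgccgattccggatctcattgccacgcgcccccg
The ANKRD37 window held 2 matches, one of them within CACGTG, and the HK2 window held 2, both within CACGTG. The PDK1 window held 2 close together, whereas the window of its first start held 0. The P4HA1 window held 1, and the SLC2A1 and PGAM1 windows held 0, as did all windows of EPAS1, HK1 and P4HA2, which also fell. LDHA and PGK1, neither of them called, each had a window with 3, the most of any member. Promoters of 35 of the 41 members were found, with 66 windows in all, and those of SLC2A3, VEGFA, NDRG1, PFKFB2, SLC16A1 and BNIP3L were not used here. ACGTG on either strand occurred in 37.9% of the members' windows and in 21.4% of all 35116 windows of this length, and CACGTG in 12.1% and 7.26%. Among members, the share with ACGTG was 39.3% of the 28 windows of genes that fell and 36.8% of the 38 windows of the others. By gene, 69.2% of 13 that fell and 54.5% of 22 others had it in at least 1 window, against 24.9% of all 27305 genes. A share by gene rises with the number of windows per gene, which was highest in the genes that fell and lowest over all genes. The shares by gene are therefore not like for like. Windows of the same gene can overlap and hold the same site, as some of PFKM do. The shares by window thus count some sites more than once and do not rest on independent windows. A match is a run of letters and not a bound site. GCGTG was not counted, so a window with 0 matches may still hold a core in that form, as the SLC2A1 window does.

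Over the 4 libraries, 16 of the 41 members were lower in SiCIRBP at an edgeR adjusted p under 0.05, and 1 was higher. Of all 15421 genes tested, 9.76% were lower and 9.62% were higher by the same rule. Since the genes were listed with results of these libraries known, nothing is read from that difference. SLC2A3 is among the 16, and without it 15 of 40 members fell. The median log2 fold change was -0.32 over the members, 28 of which were negative, and -0.00 over all genes, of which 50.2% were negative. Besides SLC2A3, a change of at least 2-fold was called in SLC2A1, PDK1 and HK2, all lower, where 1.8% of all genes fell by as much.

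With all 6 libraries in the fit, edgeR called 0 members and 0 of 15217 genes at an adjusted p under 0.05. The smallest edgeR adjusted p of any gene was 0.0853. P4HA1 had that value, which the Benjamini-Hochberg adjustment can give to many genes alike, so it does not mark P4HA1 as the first of all genes. At an unadjusted p under 0.05, 19 members were lower and 2 higher, against 11.6% and 12.1% of all genes. DESeq2 over the same 6 libraries called 8 of the 40 members other than SLC2A3 lower and 0 higher, where it called 5.04% of genes lower and 4.48% higher. Those 8 were SLC2A1, HK2, ALDOC, ENO2, PDK1, VEGFA, ANKRD37 and P4HA1. All 3 SiCIRBP libraries lay below all 3 NC libraries in 18 members, as they did in 16.6% of all genes, and above them in 2 members, PGAM1 and PKM, as in 16.2% of all genes. An exact permutation test of 3 against 3 libraries cannot give a p below 0.1, so no single gene can pass by that test.

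Leaving out a control library removed most calls, while the log2 fold changes of the genes that lost theirs kept their sign. With NC_2 left out of the 4, SLC2A1, HK2, PDK1 and EPAS1 were still called lower besides SLC2A3 (0.613% of all genes), and with NC_3 left out SLC2A1 was (0.246% of all genes). The log2 fold change of P4HA1, -0.73 over the 4 libraries, was -0.70 and -0.77 in these fits, and that of HK1, -0.35, was -0.33 and -0.38. In these fits the lone NC library is assumed to vary like the others. Adding NC_1 back without SiCIRBP_2 left 7 members called lower (SLC2A1, HK2, PFKM, ALDOC, ENO2, PDK1 and P4HA1; 3.63% of all genes). NC_1 lay below both NC_2 and NC_3 in 14 of the 16 genes, and in 7 of them it was nearer on the log2 scale to the SiCIRBP mean than to the NC mean of the 4 libraries. SiCIRBP_2 lay below NC_2 and NC_3 in all 16, and below both other SiCIRBP libraries in 7. The 16 genes were called for NC_2 and NC_3 lying above SiCIRBP_1 and SiCIRBP_3. That choice by itself tends to place the libraries left out between the groups. The same positions were not counted over all genes called lower, so nothing is read from these counts.

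**Figure D1:**
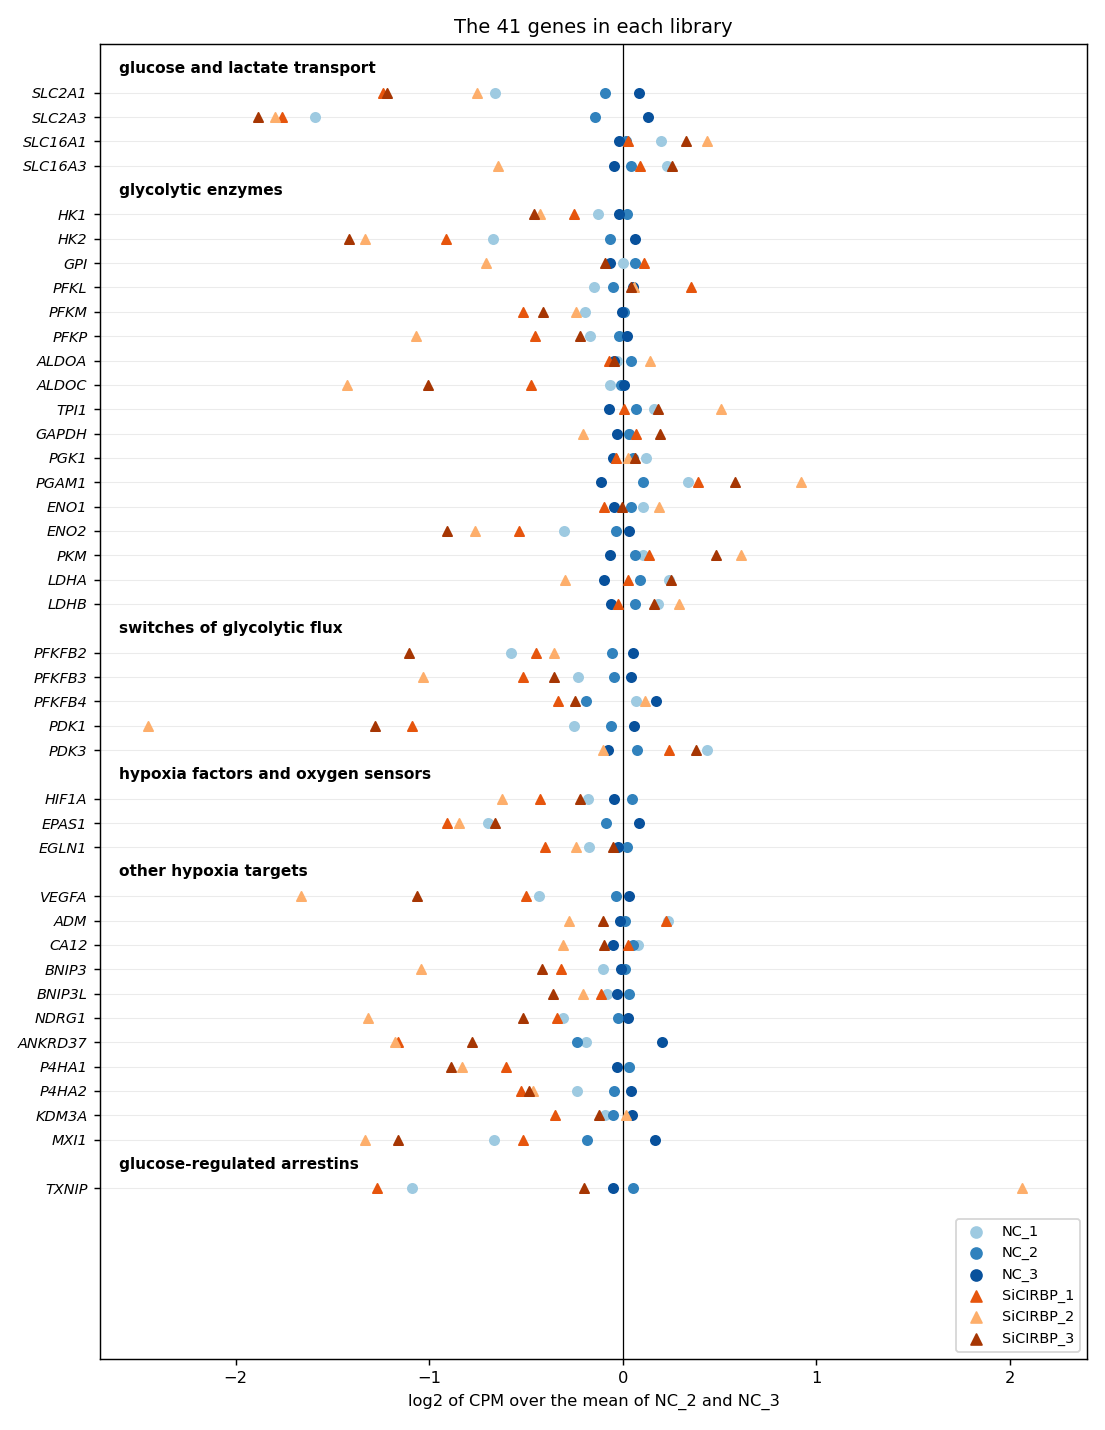
Level of each of the 41 members in each library, as the log2 of CPM over the mean of NC_2 and NC_3, with circles for NC and triangles for SiCIRBP and genes grouped by role. The mean of SiCIRBP_1 and SiCIRBP_3 lies furthest to the left for SLC2A3, SLC2A1, PDK1 and HK2, while SiCIRBP_2 of SLC2A1 lies less far, at -0.75. NC_1 lies near the SiCIRBP libraries for SLC2A3 but near the other NC libraries for PDK1 and P4HA1. For TXNIP, SiCIRBP_2 alone lies far to the right.

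Both glucose transporters of the list were lower in SiCIRBP, whereas the lactate exporters gave no call. SLC2A3 encodes GLUT3, a transporter with high affinity for glucose (chr12:7919230-7936275, minus strand, hg38). It stood at 43.4, 118 and 143 CPM in NC_1, NC_2 and NC_3 and at 38.5, 37.6 and 35.3 CPM in the 3 SiCIRBP libraries. The SiCIRBP libraries were close together and the NC libraries were not, since NC_1 lay just above the SiCIRBP level. The mean over the 4 libraries was 130 ± 17.5 CPM in NC and 36.9 ± 2.25 CPM in SiCIRBP (SD, n = 2 each), a log2 difference of -1.82, or 3.53-fold. Over all 6 libraries the difference of the mean log2 CPM was -1.28. Of the 31-base words in the annotated SLC2A3 transcripts, 25.3% also occur in those of its near copy SLC2A14, so reads may be split between them. SLC2A14 had at most 0.131 CPM in any library, and the sum of both genes gave the same log2 difference.

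SLC2A1 encodes GLUT1, the transporter of basal glucose uptake (chr1:42925375-42959176, minus strand). Its level was 145, 215 and 243 CPM in NC_1, NC_2 and NC_3 against 97, 136 and 98.4 CPM in SiCIRBP_1, SiCIRBP_2 and SiCIRBP_3. All SiCIRBP values lay below all NC values, but the gap between NC_1 and SiCIRBP_2 was small. It fell by 1.23 on the log2 scale over the 4 libraries (SE 0.09, edgeR adjusted p = 0.00262), and gave -0.86 over 6 libraries (edgeR adjusted p = 0.104, DESeq2 adjusted p = 0.00746). Per transcript length, SLC2A1 was the more abundant of both transporters, with a mean of 159 TPM in NC and 71.7 TPM in SiCIRBP, against 39.1 and 12.7 TPM for SLC2A3. The share of SLC2A3 in their summed TPM was 13.5, 20.7 and 22% in NC and 17.7, 12.5 and 15.4% in SiCIRBP, and these ranges overlapped.

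SLC16A3 (MCT4), which exports lactate and was the most abundant transporter of the list per length, had 297, 261 and 246 CPM in NC and 270, 162 and 302 CPM in SiCIRBP. The groups overlapped and the 4 libraries gave a log2 fold change of 0.17 (edgeR adjusted p = 0.199). SLC16A1 (MCT1), which carries lactate both ways, gave 0.19 (edgeR adjusted p = 0.288). The lactate exporters thus did not share the values of the glucose transporters, although a difference between the pairs was not tested.

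**Figure D2:**
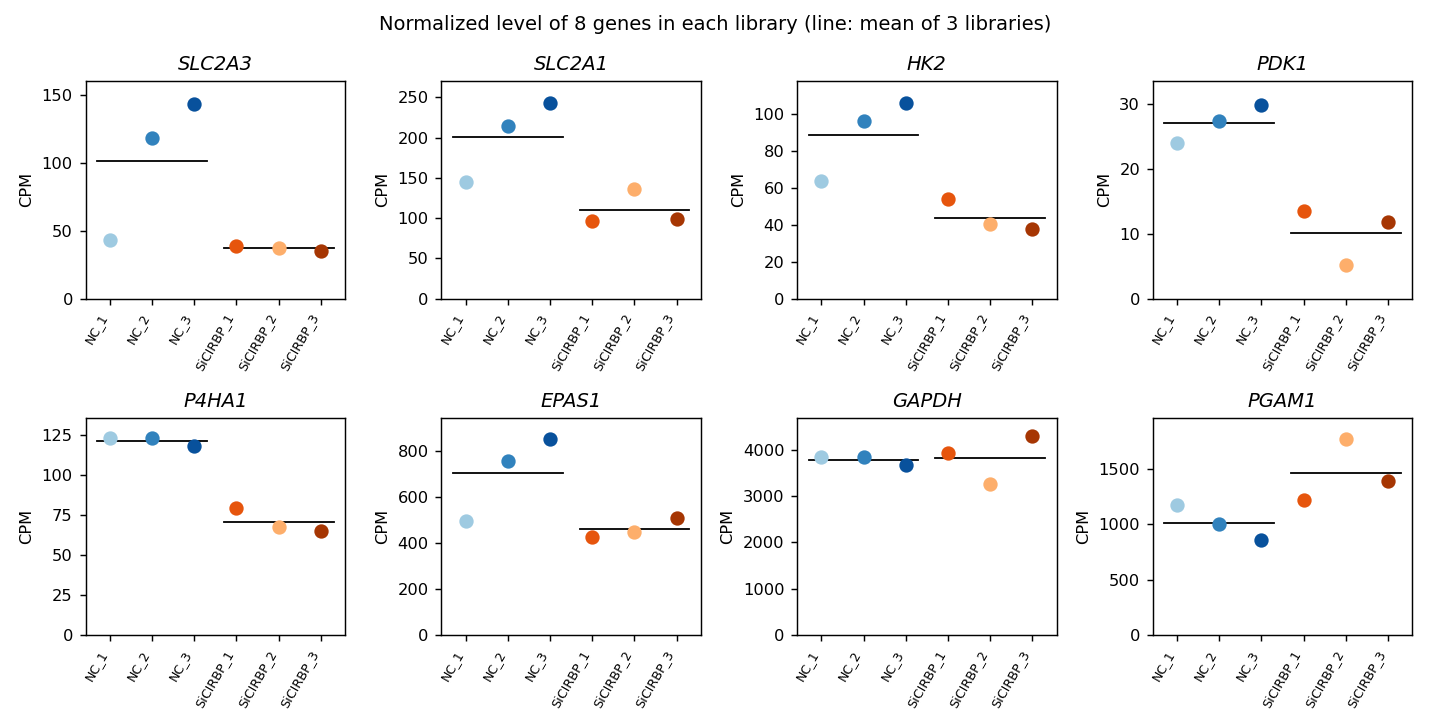
CPM of 8 members in each library on axes that start at 0, with a line at the mean of the 3 libraries of a group. For SLC2A3, NC_1 (43.4 CPM) sits just above the SiCIRBP level of 35.3 to 38.5 CPM; for P4HA1, all NC libraries lie between 118 and 123 CPM, above the 65.2 to 79.4 CPM of SiCIRBP; for GAPDH the groups overlap.

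Of the 17 glycolytic enzymes, 5 fell over the 4 libraries by edgeR, 1 rose and 11 did not pass the threshold (9.76% and 9.62% of all genes fell and rose), with a median log2 fold change of 0.01. Their summed level was 18084 to 19269 TPM in NC and 17077 to 19809 TPM in SiCIRBP, so the groups overlapped. The enzymes that fell were HK1, HK2, PFKM, ALDOC and ENO2, of which all but HK1 are the least abundant members at their steps in these libraries. All 10 enzymes with a mean of 209 TPM or more lay between -0.06 and 0.49, and the 7 between 15.5 and 195 TPM lay between -1.14 and 0.20, a split made after the values were seen.

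HK2 encodes hexokinase 2, an isozyme that is raised by insulin and hypoxia (chr2:74833981-74893359, plus strand). Its level was 63.7, 96.7 and 106 CPM in NC_1, NC_2 and NC_3 and 53.9, 40.3 and 38 CPM in SiCIRBP. The groups did not overlap, with NC_1 between the other NC libraries and SiCIRBP. HK2 fell by 1.14 on the log2 scale (SE 0.16, edgeR adjusted p = 0.0098), or 2.2-fold. HK1, the housekeeping hexokinase, had 369, 409 and 397 CPM in NC and 338, 300 and 293 CPM in SiCIRBP, a smaller fall of 0.35 (SE 0.09, edgeR adjusted p = 0.0416). HK2 made up 9.46, 12.6 and 14% of the summed HK1 and HK2 TPM in NC and 8.78, 7.57 and 7.14% in SiCIRBP. Of the HK2 transcript words, 15.5% also occur in the pseudogene HK2P1, which had 0 counts in every library.

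Phosphofructokinase carries out the committed step and has a muscle, a liver and a platelet isozyme. The muscle isozyme PFKM had 100, 115 and 114 CPM in NC and 80.2, 96.7 and 86 CPM in SiCIRBP, and fell by 0.46 (SE 0.08, edgeR adjusted p = 0.0164). The platelet isozyme PFKP had 379, 420 and 432 CPM in NC and 311, 203 and 365 CPM in SiCIRBP. Its groups did not overlap, but it missed the threshold in edgeR (log2 fold change -0.33, adjusted p = 0.0532) and passed it in DESeq2 over the same 4 libraries (adjusted p = 0.019). The liver isozyme PFKL gave 0.20 (edgeR adjusted p = 0.249), and its share of the summed TPM of all 3 isozymes was 23.8 to 24.9% in NC and 28.8 to 37.7% in SiCIRBP.

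ALDOC, the brain-type aldolase, stood at 26.9, 28 and 28.3 CPM in NC and at 20.3, 10.5 and 14 CPM in SiCIRBP. Its NC libraries lay close together, NC_1 included, and it fell by 0.71 on the log2 scale (SE 0.18, edgeR adjusted p = 0.0389). ENO2, the neuronal enolase, had 61.4, 74 and 77.5 CPM in NC and 52.3, 44.7 and 40.4 CPM in SiCIRBP, with a fall of 0.71 as well (SE 0.13, edgeR adjusted p = 0.0181). The abundant partners differed from them in value, with -0.06 for ALDOA (edgeR adjusted p = 0.622) and -0.05 for ENO1 (edgeR adjusted p = 0.703). ALDOC accordingly made up 1.52 to 1.6% of aldolase TPM in NC and 0.524 to 1.22% in SiCIRBP, and ENO2 made up 1.62 to 2.34% and 1.14 to 1.58% of enolase TPM.

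PGAM1, which moves the phosphate of phosphoglycerate, was the only member that edgeR called higher. It had 1176, 1003 and 861 CPM in NC and 1219, 1767 and 1391 CPM in SiCIRBP, so that NC_1 lay close below SiCIRBP_1. The rise was 0.49 on the log2 scale over the 4 libraries (SE 0.11, edgeR adjusted p = 0.027), 0.53 over 6 libraries (edgeR adjusted p = 0.14) and 0.40 on the log2(TPM + 1) scale (limma adjusted p = 0.0568). Of its transcript words, 34.9% occur in other genes, so reads may be split between them. AC012085.1, which shares the most at 27.7%, had at most 9.81 counts in any library, against 25827 to 45439 for PGAM1. PKM, the pyruvate kinase gene, had 4215, 4084 and 3745 CPM in NC and 4297, 5968 and 5463 CPM in SiCIRBP, higher in every SiCIRBP library, with an edgeR adjusted p of 0.12 and a DESeq2 adjusted p of 0.0495 over the 4 libraries.

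GAPDH, the most abundant enzyme of the list at a mean of 4658 TPM, had 3837, 3833 and 3666 CPM in NC and 3934, 3253 and 4286 CPM in SiCIRBP. The groups overlapped and the log2 fold change was 0.13 (SE 0.08, edgeR adjusted p = 0.301). GPI, TPI1, PGK1, LDHA and LDHB, which complete the path to lactate, lay between 0.01 and 0.14 with edgeR adjusted p of 0.376 to 0.942. LDHB made up 22.9 to 23.5% of lactate dehydrogenase TPM in NC, 22.1 and 22.2% in SiCIRBP_1 and SiCIRBP_3 and 32% in SiCIRBP_2. Of the transcript words of ALDOA, LDHB, GAPDH and TPI1, 42.9, 31.4, 20.1 and 17.7% occur in other genes.

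Among the genes that switch glycolytic flux, PDK1 and PFKFB3 fell by edgeR, and 3 of 5 did not pass the threshold. PDK1 encodes a pyruvate dehydrogenase kinase, which limits the use of pyruvate by pyruvate dehydrogenase (chr2:172555373-172608669, plus strand). Its level was 24.1, 27.5 and 29.9 CPM in NC_1, NC_2 and NC_3 and 13.5, 5.25 and 11.8 CPM in SiCIRBP_1, SiCIRBP_2 and SiCIRBP_3. The groups lay well apart with all 6 libraries included. It fell by 1.19 (SE 0.13, edgeR adjusted p = 0.00572), and gave -1.42 over 6 libraries (edgeR adjusted p = 0.0965, DESeq2 adjusted p = 0.00053). Its paralog PDK3 gave 0.31 (edgeR adjusted p = 0.121), and the share of PDK1 in the summed TPM of both was 51.6, 69.7 and 66.8% in NC against 40.8, 17.8 and 33.8% in SiCIRBP.

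PFKFB3 makes fructose 2,6-bisphosphate, a potent activator of phosphofructokinase, and was the most abundant switch per length. Its level was 123, 140 and 149 CPM in NC and 101, 70.7 and 113 CPM in SiCIRBP, with no overlap. It fell by 0.43 (SE 0.09, edgeR adjusted p = 0.024). The related PFKFB2 and PFKFB4 gave -0.74 and -0.29 (edgeR adjusted p = 0.0679 and 0.267, DESeq2 adjusted p = 0.0445 for PFKFB2), with counts of only 137 to 333 and 262 to 398 per library.

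Of the hypoxia factors and their oxygen sensor, EPAS1 fell by edgeR, and HIF1A and EGLN1 did not pass its threshold. EPAS1 encodes the alpha subunit of HIF-2 (chr2:46293667-46386703, plus strand). It had 497, 757 and 852 CPM in NC_1, NC_2 and NC_3 and 428, 447 and 510 CPM in SiCIRBP_1, SiCIRBP_2 and SiCIRBP_3. NC_1 lay within the SiCIRBP range, the only one of the 16 genes whose groups overlapped over 6 libraries. Over the 4 libraries EPAS1 fell by 0.78 (SE 0.11, edgeR adjusted p = 0.00951), and over 6 it gave -0.60 (edgeR adjusted p = 0.139). HIF1A, the alpha subunit of HIF-1, had 300, 351 and 329 CPM in NC and 253, 221 and 292 CPM in SiCIRBP. Its groups were separate by a narrow gap, with a log2 fold change of -0.32 (SE 0.09, edgeR adjusted p = 0.058). Over the same 4 libraries HIF1A passed with DESeq2 (adjusted p = 0.027) and with limma on log2(TPM + 1) (adjusted p = 0.0467). EGLN1, the prolyl hydroxylase that marks both subunits, gave -0.22 (edgeR adjusted p = 0.257). HIF alpha subunits are controlled mainly as proteins, which were not measured in these libraries.

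The remaining hypoxia targets held 6 of 11 genes that fell by edgeR and 0 that rose, where 9.76% and 9.62% of all genes did, with a median log2 fold change of -0.42 against -0.00 for all genes. P4HA1 and P4HA2 encode the catalytic subunits of collagen prolyl 4-hydroxylase. P4HA1 (chr10:73007217-73096974, minus strand) had 123, 123 and 118 CPM in NC and 79.4, 67.8 and 65.2 CPM in SiCIRBP. Here NC_1 lay with the other NC libraries, and the groups were apart by more than the spread of either. P4HA1 fell by 0.73 over the 4 libraries (SE 0.11, edgeR adjusted p = 0.0113) and gave -0.78 over 6 (SE 0.12, edgeR adjusted p = 0.0853, DESeq2 adjusted p = 3.25e-05). P4HA2 had 56.5, 64.4 and 68.6 CPM in NC and 46.2, 48.3 and 47.5 CPM in SiCIRBP, and fell by 0.50 (SE 0.09, edgeR adjusted p = 0.016).

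VEGFA, the growth factor of blood vessels, had 60.1, 79.2 and 83 CPM in NC and 57.3, 25.6 and 38.8 CPM in SiCIRBP. NC_1 and SiCIRBP_1 nearly met, and the fall was 0.75 (SE 0.18, edgeR adjusted p = 0.0305). ANKRD37, a small ankyrin-repeat gene known as a hypoxia target, had 4.77, 4.62 and 6.26 CPM in NC and 2.43, 2.41 and 3.17 CPM in SiCIRBP. It had the fewest counts of the members called, 62 to 191 per library, and fell by 0.96 (SE 0.26, edgeR adjusted p = 0.0437).

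BNIP3, a mitochondrial receptor for mitophagy, had 172, 186 and 183 CPM in NC and 148, 89.7 and 138 CPM in SiCIRBP, a fall of 0.36 (SE 0.08, edgeR adjusted p = 0.0265). Of its transcript words, 15.2% occur in the pseudogene BNIP3P1, which had 0 counts in every library. Its relative BNIP3L had 160, 173 and 166 CPM against 157, 147 and 132 CPM. That difference was small and did not pass (log2 fold change -0.23, edgeR adjusted p = 0.151). NDRG1, a stress-responsive gene and the most abundant of these targets per length, had 229, 279 and 289 CPM in NC and 224, 114 and 199 CPM in SiCIRBP. NC_1 was close to SiCIRBP_1, and NDRG1 fell by 0.42 (SE 0.09, edgeR adjusted p = 0.0228). MXI1, ADM, CA12 and KDM3A were not called by edgeR, with log2 fold changes of -0.80, 0.07, -0.03 and -0.23 and edgeR adjusted p of 0.0528, 0.704, 0.834 and 0.182, while DESeq2 over the same 4 libraries called MXI1 lower (adjusted p = 0.00481).

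TXNIP, an arrestin that is raised by glucose and limits its uptake, behaved differently in 1 library. It had 2.1, 4.62 and 4.3 CPM in NC and 1.85, 18.6 and 3.88 CPM in SiCIRBP, so that SiCIRBP_2 lay above all others. The log2 fold change was -0.64 over the 4 libraries (edgeR adjusted p = 0.236) and 1.14 over 6 (edgeR adjusted p = 0.379).

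**Figure D3:**
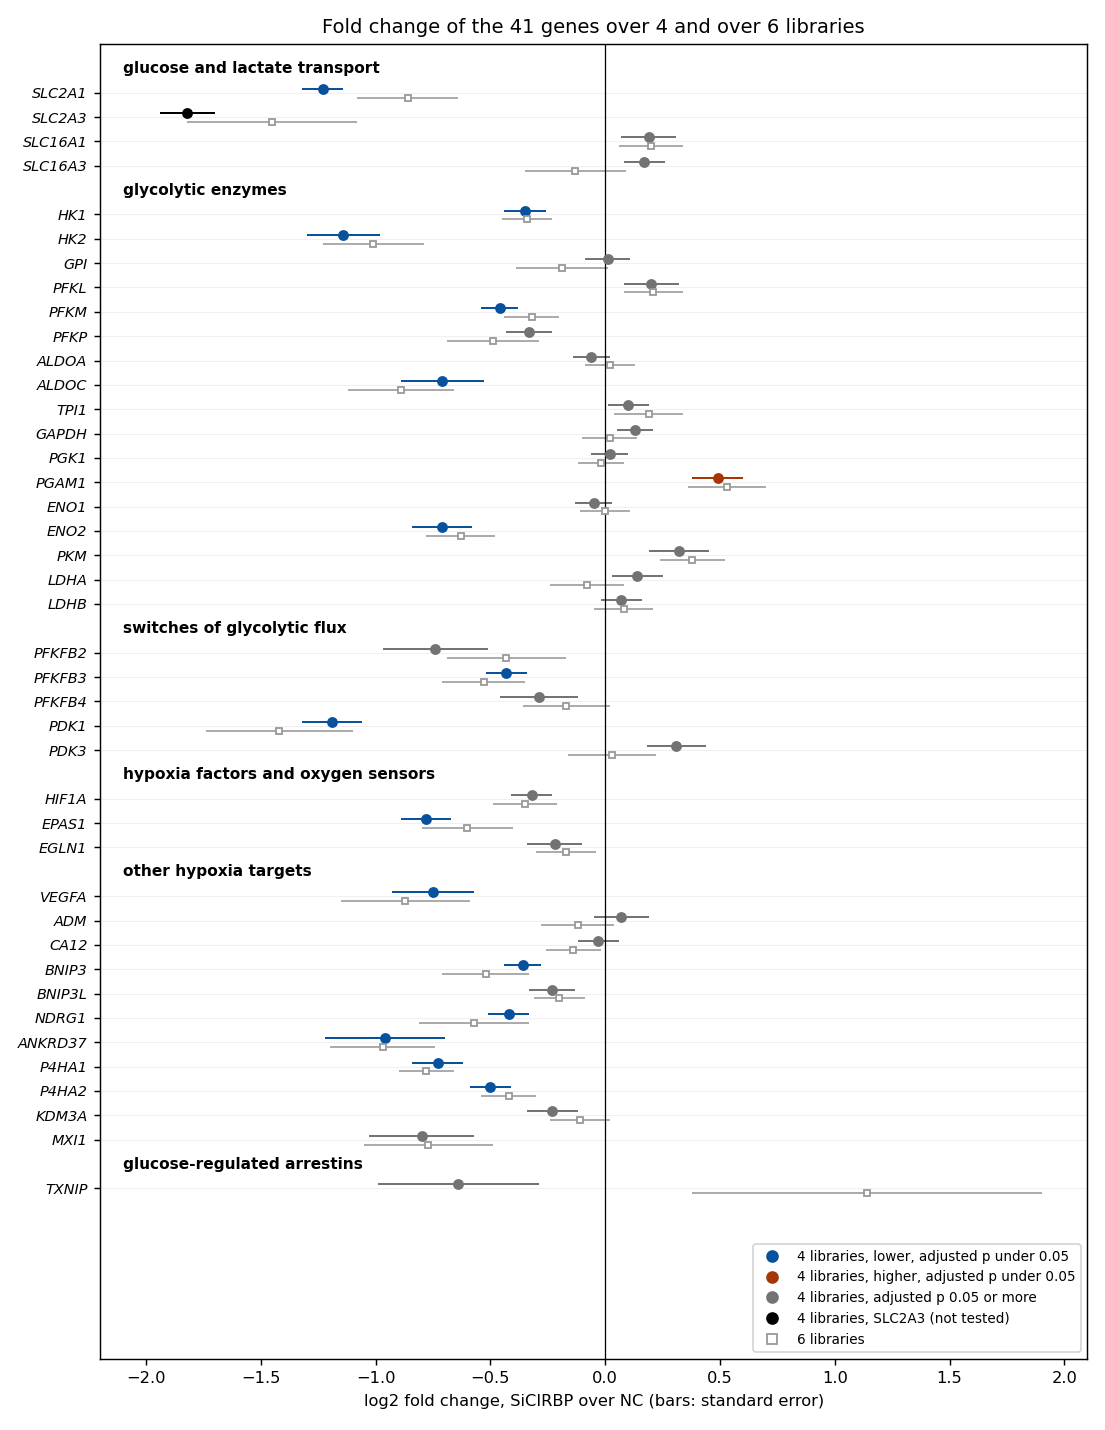
Log2 fold change of SiCIRBP over NC with its standard error for the 41 members, over the 4 libraries the study tested (filled circles) and over all 6 (open squares). Of the 16 genes lower over the 4 libraries, SLC2A3 (shown in black, with no test) and SLC2A1 lie nearer 0 over 6 libraries, and PDK1 lies further from it. Among the genes not called, TXNIP moves from -0.64 to 1.14, and the others whose sign differs lie close to 0.

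NC_1 did not shift all of the members alike. On a log2 scale on which 0 is the NC mean and 1 the SiCIRBP mean of the 4 libraries, NC_1 lay at 0.89 for EPAS1, 0.87 for SLC2A3, 0.73 for NDRG1, 0.59 for HK2 and 0.53 for SLC2A1. For P4HA1, ALDOC, ANKRD37 and PDK1 it lay at -0.05, 0.093, 0.2 and 0.22. The last 4 genes are among the 8 that DESeq2 called over all 6 libraries, as are HK2 and SLC2A1, whereas EPAS1 and NDRG1 are not. SLC2A3 would also pass there, but its fall was known when the list was drawn up, so its passing is no result. BNIP3, HK1 and PFKM, with NC_1 at 0.27, 0.36 and 0.41, were not called there. NC_1 is itself part of that fit, so its position and the calls are not independent. All genes named here were picked after their positions were seen. In a list of 22 amino acid and ATF4 stress genes, the median log2 difference from NC_2 and NC_3 was -0.38 in NC_1, -0.22 in SiCIRBP_1, -0.04 in SiCIRBP_2 and -0.51 in SiCIRBP_3, and its part in the position of NC_1 was not tested.

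The length that the quantification assigned to each gene, taken as the ratio of estimated count to TPM, gave a readout that the choice of members had not used. In a limma fit over the 4 libraries, 0 of the 41 members and 0 of 11445 genes passed an adjusted p under 0.05, with a smallest adjusted p of 0.252 among the members. At an unadjusted p under 0.05, 5 members were longer and 4 shorter, against 6.11% and 7.13% of all genes. For SLC2A1 the assigned length was 10.2% longer in SiCIRBP (limma adjusted p = 0.326), and for SLC2A3 0.542% longer (limma adjusted p = 0.929).

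A wider list of 128 further genes of the same pathways was compared by the same fit. Of the 107 tested over the 4 libraries, 18 (16.8%) fell and 12 rose, where 9.76% and 9.62% of all genes did. By part, 0 of 12 transporters and their partners, 5 of 31 enzymes of glycolysis, pyruvate and glycogen, 10 of 51 hypoxia pathway genes and 3 of 13 glucose-sensing factors fell, and 0, 3, 7 and 2 rose. Without NC_2, 2 of the wider list were called lower (0.613% of all genes), and without NC_3, 0 were (0.246% of all genes). Over 6 libraries edgeR called 0 of them, with 20 lower and 14 higher at an unadjusted p under 0.05 (11.6% and 12.1% of all genes), and DESeq2 called 14 lower and 6 higher (5.04% and 4.48% of all genes).

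A fall of at least 2-fold was seen in STC1, CCNG2, ZNF395 and MXD1 of the wider list. CCNG2, a cyclin linked to growth arrest, had 13.6, 19.9 and 17.7 CPM in NC and 7.94, 10.6 and 8.05 CPM in SiCIRBP, a fall of 1.23 (edgeR adjusted p = 0.00572). ZNF395 had 24.6, 39.5 and 33.3 CPM against 20, 7.16 and 15.2 CPM, a fall of 1.05 (edgeR adjusted p = 0.0117). MXD1, an antagonist of Myc, had 14.5, 23.6 and 22.4 CPM against 12, 18.7 and 10.9 CPM. It fell by 1.00 over the 4 libraries (edgeR adjusted p = 0.00697), and its groups overlapped over 6. STC1, a secreted glycoprotein, was low at 0.445 to 2.79 CPM, or 13 to 85 counts, and fell by 2.13 (SE 0.36, edgeR adjusted p = 0.0139).

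ARNT, VHL, MLXIP and MLX, which are partners of the hypoxia and glucose-sensing factors, were not called by edgeR. They do not stand for the wider list, in which 18 genes fell and 12 rose, other partners of these factors among them. ARNT, the beta subunit shared by HIF-1 and HIF-2, had 38.9, 45.9 and 49.3 CPM in NC and 39.8, 30.9 and 36.8 CPM in SiCIRBP (log2 fold change -0.31, SE 0.10, edgeR adjusted p = 0.0719). VHL, which directs the hydroxylated alpha subunits to degradation, gave -0.10 (edgeR adjusted p = 0.536). MLXIP and MLX, which together drive TXNIP in response to glucose, gave -0.27 and -0.28 (edgeR adjusted p = 0.11 and 0.133), and MLXIPL had at most 0.349 CPM in any library and was not tested. Of the related genes that were called, 2 are named after their values were seen, both of them higher. EGLN2, a prolyl hydroxylase like EGLN1, had 106, 98.6 and 103 CPM in NC and 155, 206 and 160 CPM in SiCIRBP, and rose by 0.64 (SE 0.08, edgeR adjusted p = 0.00713). TXN, the thioredoxin that TXNIP binds, had 123, 106 and 97.3 CPM in NC and 144, 193 and 182 CPM in SiCIRBP, and rose by 0.68 (SE 0.12, edgeR adjusted p = 0.0165). The groups of both genes were separate over 6 libraries, where edgeR gave adjusted p of 0.0869 and 0.0975.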

How the data were processed

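Estimated counts deposited by the authors, which are reads assigned to a gene and not always whole, were rounded and tested. TPM values, which also correct for transcript length and sequencing depth, were deposited by the authors too. The submitters' processing notes name fastp, HISAT and RSEM and the build hg38; versions and annotation release are not given in the sources used here. The deposited ratio (fold change), log2 fold change and p-value columns of the authors' DESeq2 comparison, the authors' mean TPM and a second table of that comparison were not used.

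Counts of all genes were tested with edgeR 4.0.16 in R 4.3.3 (TMM, filterByExpr, glmQLFit and glmQLFTest), with Benjamini-Hochberg adjustment over all genes tested and a threshold of 0.05. CPM used TMM over 6 libraries. The standard error of a log2 fold change was its absolute value divided by the root of the F statistic. Implied lengths (genes with at least 50 counts and 1 TPM in every library) and log2(TPM + 1) were tested with limma 3.58.1. DESeq2 1.42.0 and scipy 1.17.1 were used beside them. Gene positions came from GENCODE 29, which held 58611 of the gene identifiers, and shared sequence was counted in 31-base words of its transcripts. The procedures were tested on simulated data with the same dispersion in every gene. There, edgeR over 4 libraries recovered 33% of the genes changed by 0.5 on the log2 scale and 97.5% of those changed by 1. Changes near 0.5 can thus be missed, and these shares need not hold for the real libraries.

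Members and lists were chosen with earlier results of these data known. Values per library are given for members called over the 4 libraries, members whose groups were separate over 6, the most abundant member of each role and SLC2A3; wider-list genes are named if called and changed at least 2-fold, or for being SLC2A14, ARNT, MLXIP, MLXIPL, MLX or VHL, close partners or paralogs of members; EGLN2 and TXN were named after their values were seen. Totals of 25726259 to 29919566 counts per library limit precision for low genes such as TXNIP and ANKRD37, and counting error is only part of the error. Alternatives were RLE size factors, other count filters, DESeq2, TPM, each library left out and a replicate block.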

Additional observations from a re-analysis of the deposited data

How the results depend on the processing

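Of the 15 members called lower, SLC2A3 aside, and PGAM1, all 16 kept their direction in every alternative. All 16 kept their call over the 4 libraries with DESeq2, RLE size factors or either other count filter (none, or 10 counts or more in each library). With either SiCIRBP library left out, the spread comes from NC_2 and NC_3 alone, so a kept call there shows little. With limma on log2(TPM + 1) or log2(TPM + 0.1), 4 lost their call, and the median of all genes was -0.092 and -0.105. Without NC_2, 12 lost it, without NC_3, 15, and over all 6 libraries in edgeR, 16, where the log2 fold change of P4HA1 was -0.70, -0.77 and -0.78 against -0.73, that of PDK1 -1.25, -1.13 and -1.42 against -1.19 and that of SLC2A1 -1.32, -1.14 and -0.86 against -1.23. Members called lower over the 4 libraries numbered 16 with SLC2A3 counted, 4 with a change of at least 2-fold, 20 with DESeq2 or with no filter, 15 with either TPM scale, and 2 to 23 with 1 library left out. Members called higher numbered 1, 0 with a change of at least 2-fold, 2 with no filter or with DESeq2, 0 with either TPM scale, and 0 to 8 with 1 library left out. The SLC2A3 difference of -1.82 was -1.28 over 6 libraries.

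Over 6 libraries, with SLC2A3 counted, 0 members were called lower by edgeR, 9 with no filter, 9 by DESeq2, and 0 to 7 with 1 library left out, the 7 without SiCIRBP_2. For the wider list over the 4 libraries, 18 were lower and 0 to 38 with 1 library left out, and 12 were higher, 3 with either TPM scale and 0 to 25 with 1 library left out. Over 6 libraries, 0 of that list were lower, 10 with no filter, 14 by DESeq2 and 0 to 8 with 1 library left out, and 0 were higher, 3 with no filter, 6 by DESeq2 and 0 to 5 with 1 library left out.

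Of all genes over the 4 libraries, 1505 were lower, 2492 with no filter, 929 and 887 with the TPM scales, and 39 to 3669 with 1 library left out, and 1484 were higher, 482 and 449 with the TPM scales, and 25 to 3379 with 1 library left out. Over 6 libraries, 0 were lower, 460 with no filter, 715 by DESeq2 and 0 to 564 with 1 library left out, and 0 were higher, 421 with no filter, 636 by DESeq2 and 0 to 554 with 1 library left out. The cause of these differences was not tested. The assigned length gave 0 calls in each alternative.

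NC and SiCIRBP libraries that carry the same replicate number were not related, with correlations of their deviations across genes of -0.118, 0.00607 and -0.0264. With the replicate block over 6 libraries, edgeR called 0 members and, of all genes, 0 lower and 1 higher. A block could not be fitted to the 4 libraries, in which only number 3 occurs in both groups. Depth limits the low genes, such as TXNIP with 54 to 479 counts.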
